A study of Mus musculus with 15 samples.

Results

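The genes of the mTOR complexes and of their upstream regulators were followed through 15 mouse liver RNA sequencing libraries. They are 10 genes listed by symbol, Mtor, Rptor, Rictor, Mlst8, Deptor, Tsc1, Tsc2, Rheb, Ddit4 and Sesn1, out of 37991 gene identifiers in the deposited count table. Each symbol matched 1 identifier, and all 10 passed the filter on low counts that left 14258 genes for testing. The study asked how age changes the liver of wild-type (WT) mice and what loss of ribosomal S6 kinase 1 (S6K1, gene Rps6kb1), a target of mTOR, changes in old mice. Livers were flash frozen, and each library came from the whole liver RNA of 1 female C57BL/6 mouse. Young WT mice were 90 days old (n = 5, replicates 1, 2, 3, 4 and 6), old WT mice were 600 days old (n = 5, replicates 1, 4, 5, 7 and 10) and old S6K1 knockout (KO) mice were 600 days old (n = 5, replicates 1, 2, 4, 5 and 6). WT and KO animals came from breeding of heterozygous parents, and the deletion was present in every tissue of the KO animals and not in the liver alone. There was no young KO group, so genotype was compared at 600 days only.

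mTOR is a protein kinase that sits in a pair of complexes. mTORC1 is defined by the scaffold Raptor (gene Rptor), is activated at the lysosome by amino acids and growth factors, and phosphorylates S6K1 to promote protein synthesis and growth. mTORC2 is defined by Rictor and phosphorylates AKT downstream of insulin. mLST8 belongs to both complexes, and DEPTOR binds both and is known as an inhibitor. The small GTPase Rheb switches mTORC1 on, and the TSC complex (Tsc1 and Tsc2) switches Rheb off by stimulating its GTP hydrolysis. DDIT4 (REDD1) acts through the TSC complex, and sestrin 1 (Sesn1) acts on the GATOR proteins that report amino acid supply, and both are stress-inducible brakes on mTORC1. In the liver the pathway follows feeding, fasting and insulin. Much of this control acts on the proteins and their location, whereas the libraries measured the abundance of the messenger RNAs.

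Few differences among the 10 genes passed a test, but those that did not pass were not all small. In old KO against old WT livers Ddit4 differed by 43.9% (interval of the edgeR fit -22.6% to 168%). Sesn1 differed by 23.8% (-1.80% to 56.1%) and Mtor by -25.2%. Sign aside, the median log2 fold change with age was 0.10 for the 10 genes and 0.21 for all genes tested. With genotype this median was 0.12 for both. Rheb was the only member to pass the test with age, and it fell by 0.19 on the log2 scale in old WT livers, or fell by 12.3%. None passed between old KO and old WT livers in edgeR, where the smallest p belonged to Mtor, the only member that DESeq2 called, with means of 68.4 CPM (counts per 1000000 counts) in old WT and 51.1 CPM in old KO livers. Between old KO and young WT livers Mtor and Rptor passed, both lower in the KO. The promoter sequences of these 3 genes, the 250 bases before the annotated start from RefSeq on GRCm38.p6, are shown because only these members passed a test. The Mtor sequence lies at chr4:148448332-148448581 on the plus strand, the Rptor sequence at chr11:119602655-119602904 on the plus strand and the Rheb sequence at chr5:24842362-24842611 on the minus strand, and capitals mark the motif matches described below.
Mtor: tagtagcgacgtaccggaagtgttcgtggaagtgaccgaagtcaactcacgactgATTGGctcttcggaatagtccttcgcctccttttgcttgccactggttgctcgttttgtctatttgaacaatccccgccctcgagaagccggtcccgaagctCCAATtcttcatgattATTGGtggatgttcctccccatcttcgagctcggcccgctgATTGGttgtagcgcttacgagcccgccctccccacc
Rptor: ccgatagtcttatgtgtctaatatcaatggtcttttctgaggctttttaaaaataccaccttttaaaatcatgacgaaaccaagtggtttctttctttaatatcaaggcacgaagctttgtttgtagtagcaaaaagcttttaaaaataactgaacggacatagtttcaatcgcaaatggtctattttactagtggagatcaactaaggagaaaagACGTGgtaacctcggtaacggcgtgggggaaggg
Rheb: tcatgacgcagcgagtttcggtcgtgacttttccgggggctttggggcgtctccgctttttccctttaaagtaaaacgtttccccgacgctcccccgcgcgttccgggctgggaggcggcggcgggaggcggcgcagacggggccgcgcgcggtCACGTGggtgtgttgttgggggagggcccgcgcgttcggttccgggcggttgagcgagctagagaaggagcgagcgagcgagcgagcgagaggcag

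The promoters were searched on both strands for CACGTG (the E-box), ACGTG (which also matches inside every CACGTG), TGACGTCA (the cAMP response element), CCAAT and GTAAACA (a forkhead motif). Mtor held 4 matches to CCAAT or its complement, starting at positions -195, -93, -77 and -36 (position -1 is the base before the start). At least 1 such match was found in 33.8% of 32536 promoter windows of the same length, and the share with 4 was not counted. Rheb held CACGTG at position -96, a motif present in 6.04% of the windows. Rptor held ACGTG at position -34, which 16.7% of the windows did. TGACGTCA (1.56% of windows) and GTAAACA (3.17%) were not found in these 3 windows. These matches are letters in a window and were not measured as binding sites. The promoter table had an entry for 9 of the 10 members, all but Deptor.

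Read depth was ample for most members. Library totals ranged from 21801754 to 38065359 counts for young WT mice, from 27063911 to 31990482 for old WT mice and from 21984658 to 27923739 for old KO mice, and the lowest count of any member in any library was 42, for Ddit4. Levels are given as CPM after scaling of the library sizes (trimmed mean of M-values, TMM), and differences as log2 fold changes with standard error (SE) and adjusted p from the edgeR quasi-likelihood test on all 15 libraries. Rps6kb1, the deleted gene, was 38.4 ± 4.21 CPM (SD, n = 5) in old WT and 17.0 ± 2.23 CPM in old KO livers, with no overlap (log2 fold change -1.17, SE 0.0979, adjusted p = 8.54e-06). Rps6kb2, which encodes the related kinase S6K2, was 17.1 ± 1.56 and 16.8 ± 0.852 CPM (log2 fold change -0.03, adjusted p = 0.942). The hepatocyte marker albumin (Alb) averaged 85111 to 98460 CPM in the 3 groups.

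**Figure D1:**
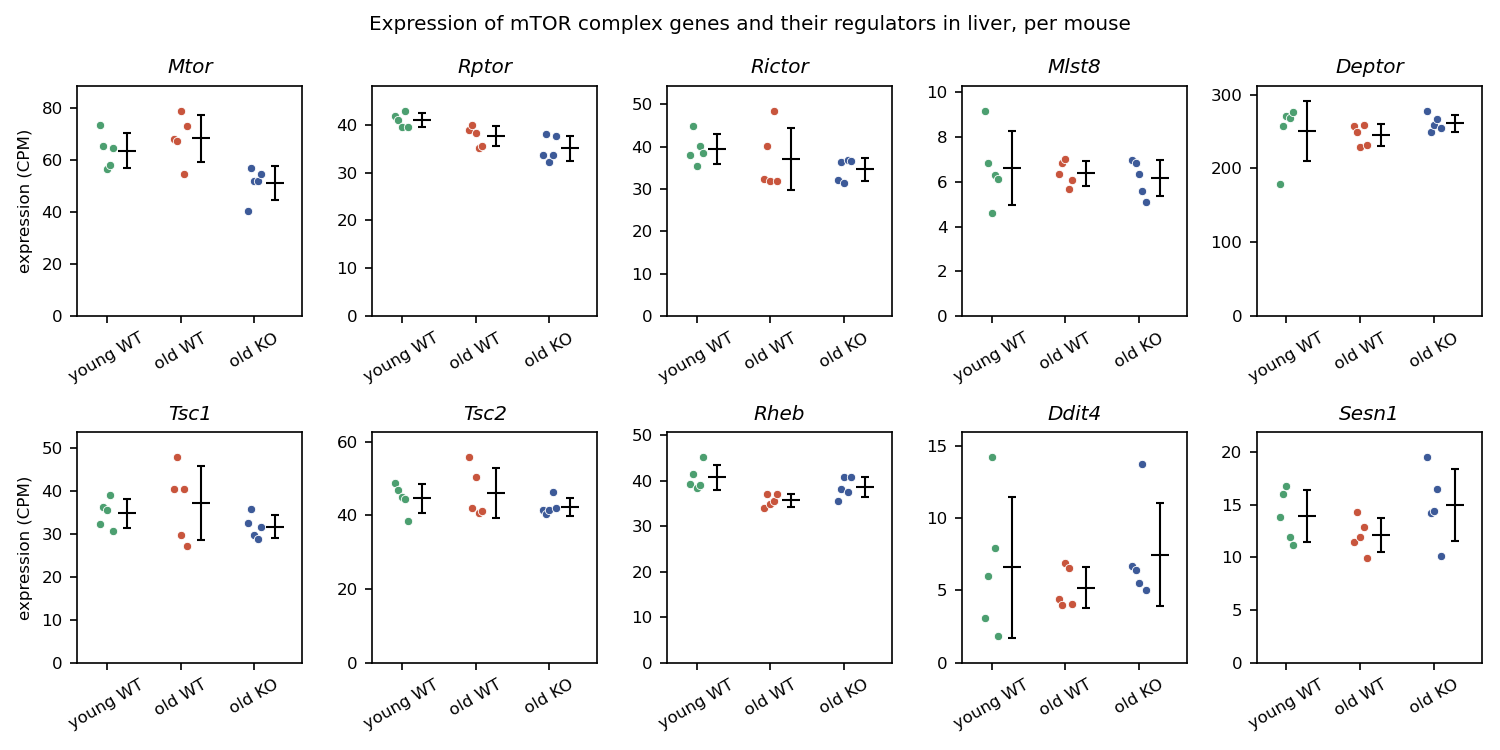
Level of each of the 10 genes in CPM (vertical axes, from 0) in the 5 young WT, 5 old WT and 5 old KO livers. Points are mice, and bars are the mean and SD of the group. Rheb is the panel in which the 5 old WT mice lie below the 5 young WT mice, and Ddit4 spans 1.81 to 14.2 CPM among young WT mice.

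Mtor (ENSMUSG00000028991, chromosome 4, 147822720 to 147931792 on the plus strand of NCBIM37) encodes the kinase of both complexes. Its level was 73.3, 65.2, 56.6, 58.2 and 64.7 CPM in young WT mice 1, 2, 3, 4 and 6. Old WT mice 1, 4, 5, 7 and 10 had 68.1, 67.2, 78.9, 54.6 and 73.1 CPM. Old KO mice 1, 2, 4, 5 and 6 had 40.3, 57.1, 51.8, 51.9 and 54.6 CPM. The old KO values were thus the lowest as a group, with KO mouse 1 lowest of all, but young WT mouse 3 and old WT mouse 7 lay within their range. Means were 63.6 ± 6.62, 68.4 ± 9.01 and 51.1 ± 6.42 CPM (SD, n = 5 each). The age difference was 0.10 (95% interval -0.12 to 0.33, adjusted p = 0.528). The genotype difference was -0.42 (SE 0.109, 95% interval -0.65 to -0.19), with adjusted p = 0.102 in edgeR, so it did not pass, although the unadjusted p was under 0.05. All 5 old KO values were below the old WT mean, and 3 of 5 were below every old WT value. DESeq2 put the same difference at -0.42 with adjusted p = 0.0267, and the adjusted p ranged from 0.0267 to 0.285 over 7 other settings, of which only DESeq2 passed.

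Marker RNA of macrophages moved along the same contrast. Of 10 markers of Kupffer cells and macrophages, all 10 had lower means in old KO than in old WT livers and 6 passed in edgeR (0.533% of all genes did), 8 in DESeq2 and 2 in limma voom. Of all 14258 genes DESeq2 called 305 and limma voom 23. Their median log2 fold change was -1.16, against 0.00 over all genes tested. Their summed level was 145 to 214 CPM in old KO, 249 to 604 CPM in old WT and 204 to 431 CPM in young WT livers, and no marker was at 0 in all libraries. Their part in the Mtor difference was not tested. In RNA from whole liver, fewer cells of a type and less RNA per cell cannot be told apart.

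Rptor (ENSMUSG00000025583, chromosome 11, 119464219 to 119760890, plus strand) encodes the scaffold that brings substrates such as S6K1 to mTORC1. It was 41.8, 40.9, 39.6, 43.0 and 39.5 CPM in young WT mice, in the replicate order used for Mtor and below. It was 38.9, 40.0, 38.4, 35.2 and 35.5 CPM in old WT mice. It was 33.7, 38, 32.3, 33.7 and 37.7 CPM in old KO mice. Every old KO mouse lay below every young WT mouse, and 4 of 5 old WT mice did so too. The steps were small, with means of 41.0 ± 1.45, 37.6 ± 2.14 and 35.1 ± 2.60 CPM. Neither the age difference (-0.12, 95% interval -0.26 to 0.01, adjusted p = 0.199) nor the genotype difference (-0.10, 95% interval -0.24 to 0.04, adjusted p = 0.591) passed.

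Rictor (ENSMUSG00000050310, chromosome 15, 6658381 to 6750398, plus strand), the defining subunit of mTORC2, was 38.1, 44.9, 35.4, 40.1 and 38.4 CPM in young WT mice. Old WT mice had 32.4, 40.2, 32.0, 48.5 and 32.0 CPM, and old KO mice had 32.1, 36.3, 31.5, 36.8 and 36.7 CPM. Old WT mice held both the highest value of all, in mouse 7, and 3 values near 32. The age difference was -0.09 (95% interval -0.33 to 0.15, adjusted p = 0.609) and the genotype difference -0.10 (95% interval -0.33 to 0.14, adjusted p = 0.815). Mlst8 (ENSMUSG00000024142, chromosome 17, 24610497 to 24616023, minus strand), the shared subunit that binds the kinase domain, was among the lower members in counts. Its level ranged from 4.60 to 9.19 CPM in young WT, 5.68 to 7.04 CPM in old WT and 5.11 to 7 CPM in old KO livers, and the means of 6.61 ± 1.66, 6.39 ± 0.553 and 6.17 ± 0.812 CPM did not differ beyond the spread (log2 fold change -0.05 for each contrast, adjusted p = 0.843 with age and 0.944 with genotype).

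Deptor (ENSMUSG00000022419, chromosome 15, 54943872 to 55090826, plus strand), the inhibitory partner, had 179, 257, 271, 269 and 277 CPM in young WT mice. It had 258, 250, 229, 259 and 231 CPM in old WT mice and 278, 249, 259, 267 and 255 CPM in old KO mice. Apart from young WT mouse 1, which was below all the others, the 3 groups overlapped. The age difference was -0.03 (95% interval -0.25 to 0.19, adjusted p = 0.863) and the genotype difference 0.09 (95% interval -0.12 to 0.31, adjusted p = 0.800).

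Tsc1 (ENSMUSG00000026812, chromosome 2, 28496748 to 28546687, plus strand) encodes hamartin, which stabilises the TSC complex. It was 32.2, 36.2, 35.6, 39.0 and 30.8 CPM in young WT, 40.5, 47.9, 29.8, 40.6 and 27.2 CPM in old WT, and 32.6, 35.8, 29.7, 28.8 and 31.6 CPM in old KO mice. The old WT mice fell on both sides of the young WT range, with 3 above it and 2 below it. The age difference was 0.10 (95% interval -0.18 to 0.37, adjusted p = 0.635) and the genotype difference -0.23 (95% interval -0.51 to 0.05, adjusted p = 0.525).

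Tsc2 (ENSMUSG00000002496, chromosome 17, 24732882 to 24769574, minus strand) encodes tuberin, the subunit that acts on Rheb. It was 48.8, 46.9, 44.9, 44.3 and 38.4 CPM in young WT, 55.8, 42.1, 50.4, 40.6 and 41.1 CPM in old WT, and 41.5, 40.2, 41.3, 46.5 and 42 CPM in old KO mice. The ranges overlapped throughout (age 0.04, 95% interval -0.15 to 0.24, adjusted p = 0.782, and genotype -0.12, 95% interval -0.32 to 0.08, adjusted p = 0.670). The end of Tsc2 shares 578 bases with the gene Pkd1 on the opposite strand, which averaged 31.2 CPM, and the strand setting of the counting was not given in the sources used here, so the assignment of reads there is uncertain.

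Rheb (ENSMUSG00000028945, chromosome 5, 24308641 to 24348442, minus strand), the direct activator of mTORC1, was 39.4, 41.4, 38.4, 39.1 and 45.2 CPM in young WT mice. It was 33.9, 37.0, 34.9, 35.6 and 37.0 CPM in old WT mice. It was 35.6, 38.2, 40.7, 37.4 and 40.9 CPM in old KO mice. All 5 old WT mice were below all 5 young WT mice. Of the 5 old KO mice 4 were above every old WT mouse, and 3 were below every young WT mouse. Means were 40.7 ± 2.74, 35.7 ± 1.35 and 38.6 ± 2.26 CPM. Rheb fell with age by 0.19 on the log2 scale (SE 0.0641, 95% interval -0.33 to -0.05, or -20.2% to -3.69%), with adjusted p = 0.0486 in edgeR. The call sat at the threshold. It was kept in 4 of 7 other settings. These were DESeq2 (adjusted p = 0.0219), limma voom (0.0483), and RLE and upper quartile scaling of the library sizes in edgeR (0.0457 and 0.0463). It was lost when genes of low counts were kept (adjusted p = 0.128), with the 10 libraries of the contrast alone (0.0690) and with a block for the replicate number (0.253). It was also lost in 13 of 15 fits that left out 1 library, namely each of the 10 WT libraries and old KO 2, 4 and 5. Over the 15 fits the adjusted p was 0.0467 to 0.107 and the log2 fold change -0.21 to -0.14. In old KO against old WT livers the difference was 0.11 (95% interval -0.02 to 0.25, adjusted p = 0.528).

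Ddit4 (ENSMUSG00000020108, chromosome 10, 59412423 to 59414518, minus strand), which glucocorticoids, hypoxia and nutrient stress are known to induce, varied more between mice than any other member. It was 3.08, 5.98, 14.2, 7.92 and 1.81 CPM in young WT, 4.40, 4.02, 6.92, 6.56 and 4.08 CPM in old WT, and 6.66, 6.39, 5.53, 13.8 and 5.06 CPM in old KO mice. The extremes of all 15 mice, 1.81 and 14.2 CPM, were both young WT, so its intervals were wide. The age difference was -0.35 (95% interval -1.24 to 0.54, adjusted p = 0.596) and the genotype difference 0.53 (95% interval -0.37 to 1.42, adjusted p = 0.691).

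Sesn1 (ENSMUSG00000038332, chromosome 10, 41530380 to 41628230, plus strand), a known p53 and FOXO target, was 13.8, 16, 16.8, 11.9 and 11.2 CPM in young WT mice. Old WT mice had 11.4, 14.3, 11.9, 12.9 and 9.96 CPM, and old KO mice had 19.5, 14.2, 14.4, 16.5 and 10.2 CPM. Of the old KO mice, 3 of 5 were above every old WT mouse and mouse 6 was near the lowest of them. The age difference was -0.20 (95% interval -0.54 to 0.13, adjusted p = 0.385) and the genotype difference 0.31 (95% interval -0.03 to 0.64, adjusted p = 0.475).

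**Figure D2:**
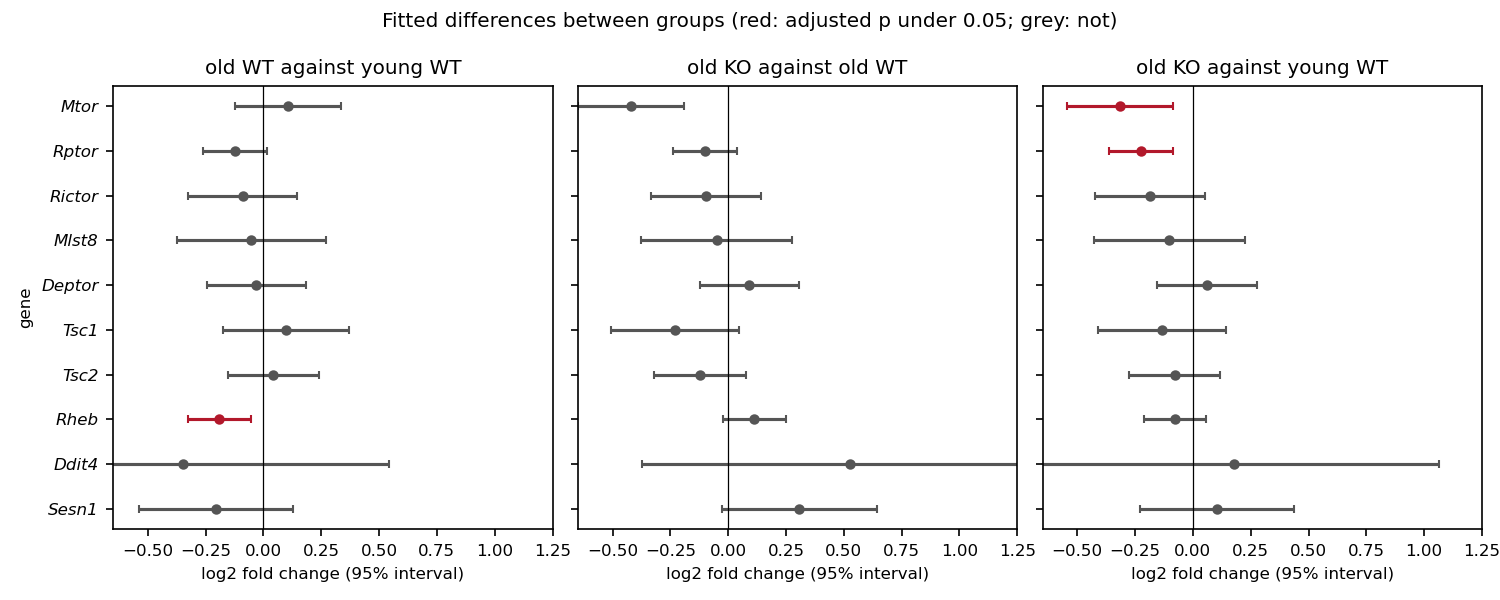
Log2 fold change (horizontal axis) of each member in the 3 contrasts, with bars for the 95% interval of the edgeR fit. Rheb with age, and Mtor and Rptor in old KO against young WT, had an adjusted p under 0.05, and the widest intervals are those of Ddit4.

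Counted over the members, 1 of 10 passed with age, where 18.8% of all genes tested did, and 0 of 10 passed with genotype, where 0.533% did. At an unadjusted p under 0.05 in edgeR, 1 of 10 passed with genotype (Mtor, 11.6% of all genes). By adjusted p DESeq2 called 1 of 10 and limma voom 0, where they called 305 and 23 of all 14258 genes. CPM ranges did not overlap for 1 of 10 with age (Rheb, 11.4% of all genes) and for 0 of 10 with genotype (3.2%). With age, 3 members had a higher mean and 7 a lower one, with a median log2 fold change of -0.07 against 0.01 over all genes. With genotype, 4 were higher and 6 lower, with a median of -0.07 against 0.00. The median size of the change, sign aside, was 0.10 for the members and 0.21 for all genes with age, and 0.12 for both with genotype.

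Old KO livers were also set against young WT livers, so that the mice differed in age as well as genotype. Here 2 of 10 members passed, where 23.3% of all genes did, and ranges did not overlap for 1 of 10 (Rptor, 13.9% of all genes). Mtor fell by 19.6% (log2 fold change -0.31, SE 0.108, adjusted p = 0.0459), with 4 of 5 old KO mice below every young WT mouse. Rptor fell by 14.3% (log2 fold change -0.22, SE 0.0653, adjusted p = 0.0221), with no overlap. The Mtor call was lost in 9 of 15 fits without 1 library (adjusted p = 0.0286 to 0.120), and the Rptor call in 3 of 15, without old KO 1, 4 or 5 (0.0172 to 0.0649). Both calls were also lost when genes of low counts were kept, with adjusted p = 0.0651 for Mtor and 0.0586 for Rptor in edgeR. The other 8 members had adjusted p-values of 0.246 to 0.790. Cell type markers differed here as well. In edgeR 5 of 10 macrophage and 2 of 7 endothelial markers were lower and 3 of 4 red blood cell markers higher. In that order DESeq2 called 5, 3 and 3, and limma voom 4, 2 and 2. The 9 hepatocyte and the 7 stellate cell markers each had 1 higher and 1 lower, and 0 of 8 T cell and 6 B cell markers passed. The part of cell content in the Mtor and Rptor differences was not tested. Each contrast shares libraries with the others, so the contrasts are not independent.

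The members differed in how much they varied among mice of the same group. The SD of log2 CPM within groups was 0.0798 for Rheb and 0.0828 for Rptor, and only 1.80% and 2.24% of all genes tested had a smaller one. It was 0.148 for Tsc2, 0.164 for Deptor, 0.182 for Mtor, 0.183 for Rictor and 0.223 for Tsc1, all under the median of 0.229 over all genes. Mlst8 (0.244) and Sesn1 (0.273) were just above it. Ddit4 stood at 0.770, and 96.7% of genes had a smaller SD. Each value rests on 5 mice in each of 3 groups and includes counting error, which weighs more on Ddit4 and Mlst8 than on the others.

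Levels of different genes were compared per kilobase of annotated exon. Deptor was the most abundant member at 28.5 ± 2.80 CPM per kb (SD over 15 libraries), and its lowest library (20.2) was above the highest library of every other member. Tsc2 (6.98 ± 0.733), Rheb (6.92 ± 0.532) and Mtor (6.04 ± 1.01 CPM per kb) followed. Sesn1 (4.11 ± 0.816), Rictor (3.98 ± 0.536) and Ddit4 (3.82 ± 2.06) formed the middle of the order. Tsc1 (2.92 ± 0.474), Rptor (2.81 ± 0.235) and Mlst8 (1.90 ± 0.312 CPM per kb) were lowest. From Tsc2 down, the ranges of neighbours in this order overlapped. With the longest transcript as the length in place of all exons, Rptor moved to 5.75, Rheb to 9.47, Mtor to 7.13 and Tsc1 to 4.49 CPM per kb, and Deptor stayed highest. The lowest place of Mlst8 could not change, so this is no check of it. Its length is 3359 bases either way, and the shorter length can only raise the level of the others.

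**Figure D3:**
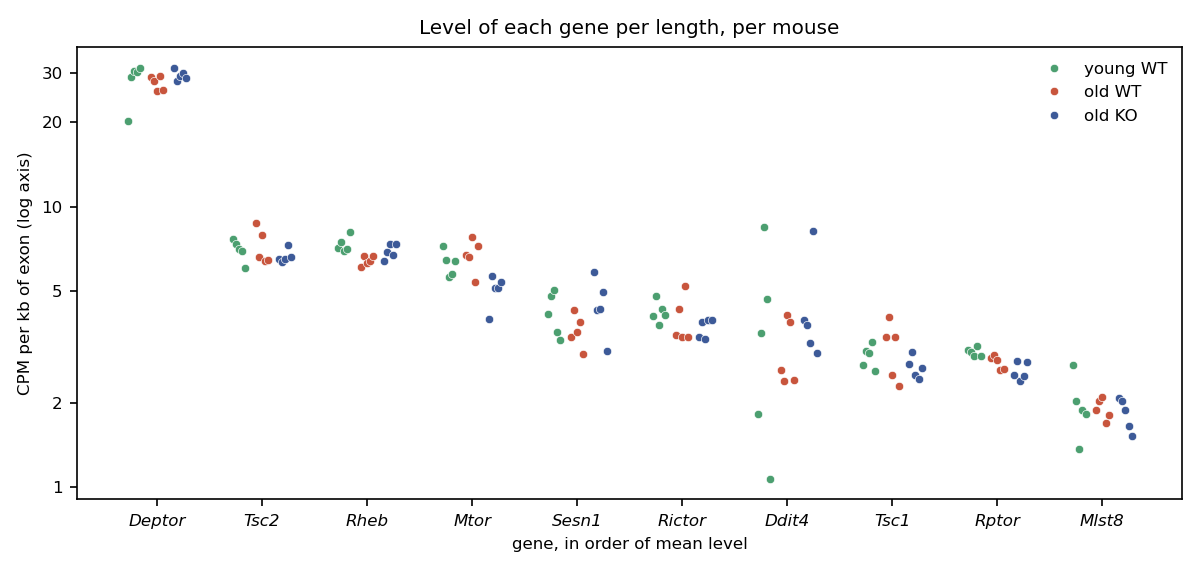
Level per kilobase of annotated exon (CPM per kb, log axis) of the 10 members in the 15 libraries, coloured by group. Deptor lies between 20.2 and 31.4 CPM per kb, apart from the other 9 genes, whose ranges overlap from neighbour to neighbour.

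Ratios of counts within a library do not depend on the scaling between libraries. They are raw count ratios, not corrected for gene length. The ratio of Rictor to Rptor, the defining subunits of mTORC2 and mTORC1, averaged -0.06 ± 0.118 on the log2 scale in young WT, -0.04 ± 0.302 in old WT and -0.02 ± 0.0819 in old KO livers (SD, n = 5). Its mean hardly moved, but old WT mice spread from a ratio of 0.833 to 1.38. The ratio of Tsc2 to Tsc1 averaged 0.36 ± 0.151, 0.33 ± 0.401 and 0.42 ± 0.191, again with the widest spread, 0.879 to 1.69 as a ratio, in old WT mice. No test was made of these ratios or their spread.

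The ratio of Deptor, the inhibitor, to Mtor was 2.45, 3.95, 4.79, 4.62 and 4.28 in young WT mice and 3.78, 3.72, 2.90, 4.75 and 3.17 in old WT mice. In old KO mice it was 6.90, 4.36, 5, 5.15 and 4.67. Of the old KO mice 3 were above all 10 WT mice, and the other two were within the WT range. The log2 means were 1.97 ± 0.393, 1.85 ± 0.274 and 2.36 ± 0.254.

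**Figure D4:**
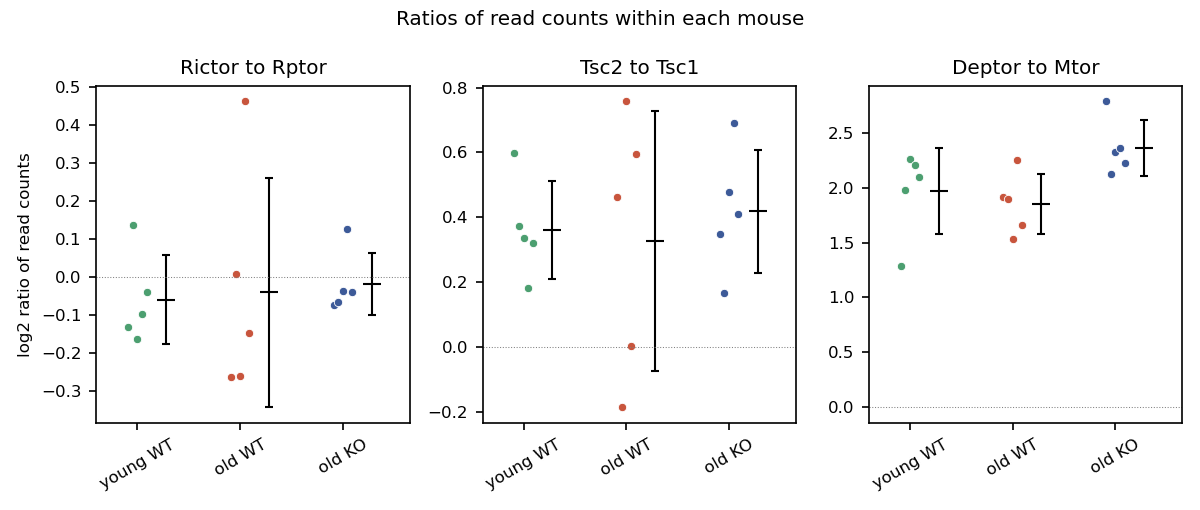
Log2 ratio of counts within each library for 3 pairs of members, by group, with mean and SD. In the Deptor to Mtor panel old KO mice lie between 2.13 and 2.79, and in the other panels the old WT mice have the largest spread.

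The rest of the pathway was read from 4 lists of genes around the members. Of 6 tested further subunits and assembly factors of the mTOR complexes, 0 passed with age or genotype in edgeR, DESeq2 or limma voom, and 0 had an unadjusted p under 0.05. The smallest p with age was that of Prr5l, which encodes a partner of mTORC2 and averaged 1.85 CPM in young WT and 1.47 CPM in old WT livers (log2 fold change -0.33, adjusted p = 0.224). Of 5 further TSC, Rheb and stress regulators, 1 rose with age, where 9.92% of all genes did. It was called by edgeR and DESeq2 but not by limma voom. It was Ddit4l, the paralog of Ddit4 (REDD2), from 1.22 ± 0.0985 to 2.34 ± 0.836 CPM (log2 fold change 0.94, adjusted p = 0.0344). It stayed at 2.60 ± 1.18 CPM in old KO livers (log2 fold change from old WT 0.15, adjusted p = 0.899).

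Among 11 tested Rag GTPase, Ragulator and lysosomal anchor genes, 1 fell with age, a share near the 8.91% of all genes that did. Rraga, which encodes the Rag GTPase that carries the amino acid signal to mTORC1, went from 41.3 ± 6.22 to 31.4 ± 1.75 CPM (log2 fold change -0.40, SE 0.0895, adjusted p = 0.00693). Among 15 GATOR, KICSTOR and amino acid sensor genes, 4 fell and 1 rose with age in edgeR, against 8.91% and 9.92% of all genes. DESeq2 called 7 and limma voom 6, where they called 3249 and 2753 of all 14258 genes. Both added Nprl2, which was higher (log2 fold change 0.36, adjusted p = 0.0561 in edgeR). DESeq2 also added Nprl3, which was lower (-0.36, adjusted p = 0.0649 in edgeR). Lars, a leucyl-tRNA synthetase that also senses leucine, fell from 48.7 ± 8.39 to 34.2 ± 5.27 CPM (log2 fold change -0.51, adjusted p = 0.00989). Sec13, a GATOR2 subunit that also serves in vesicle coats and the nuclear pore, fell from 52.3 ± 7.38 to 38.6 ± 3.19 CPM (log2 fold change -0.44, adjusted p = 0.00680). Wdr24, another GATOR2 subunit, rose from 12.5 ± 0.230 to 15 ± 1.48 CPM (log2 fold change 0.27, adjusted p = 0.0293), so subunits of the same complex moved in opposite directions. Also called as falling in edgeR, and named after their values were seen, were Itfg2 of KICSTOR (log2 fold change -0.41, adjusted p = 0.0379) and Mios of GATOR2 (-0.37, adjusted p = 0.00863).

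None of the genes on these 4 lists passed between old KO and old WT livers in edgeR, DESeq2 or limma voom, and 0 had an unadjusted p under 0.05 in edgeR. In old KO against young WT livers, 0 of 6 complex subunits passed, 1 of 5 TSC and stress regulators rose (Ddit4l), 2 of 11 Rag and Ragulator genes rose and 1 fell, and 1 of 15 GATOR, KICSTOR and sensor genes rose and 3 fell, where 23.3% of all genes passed in either direction.

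**Figure D5:**
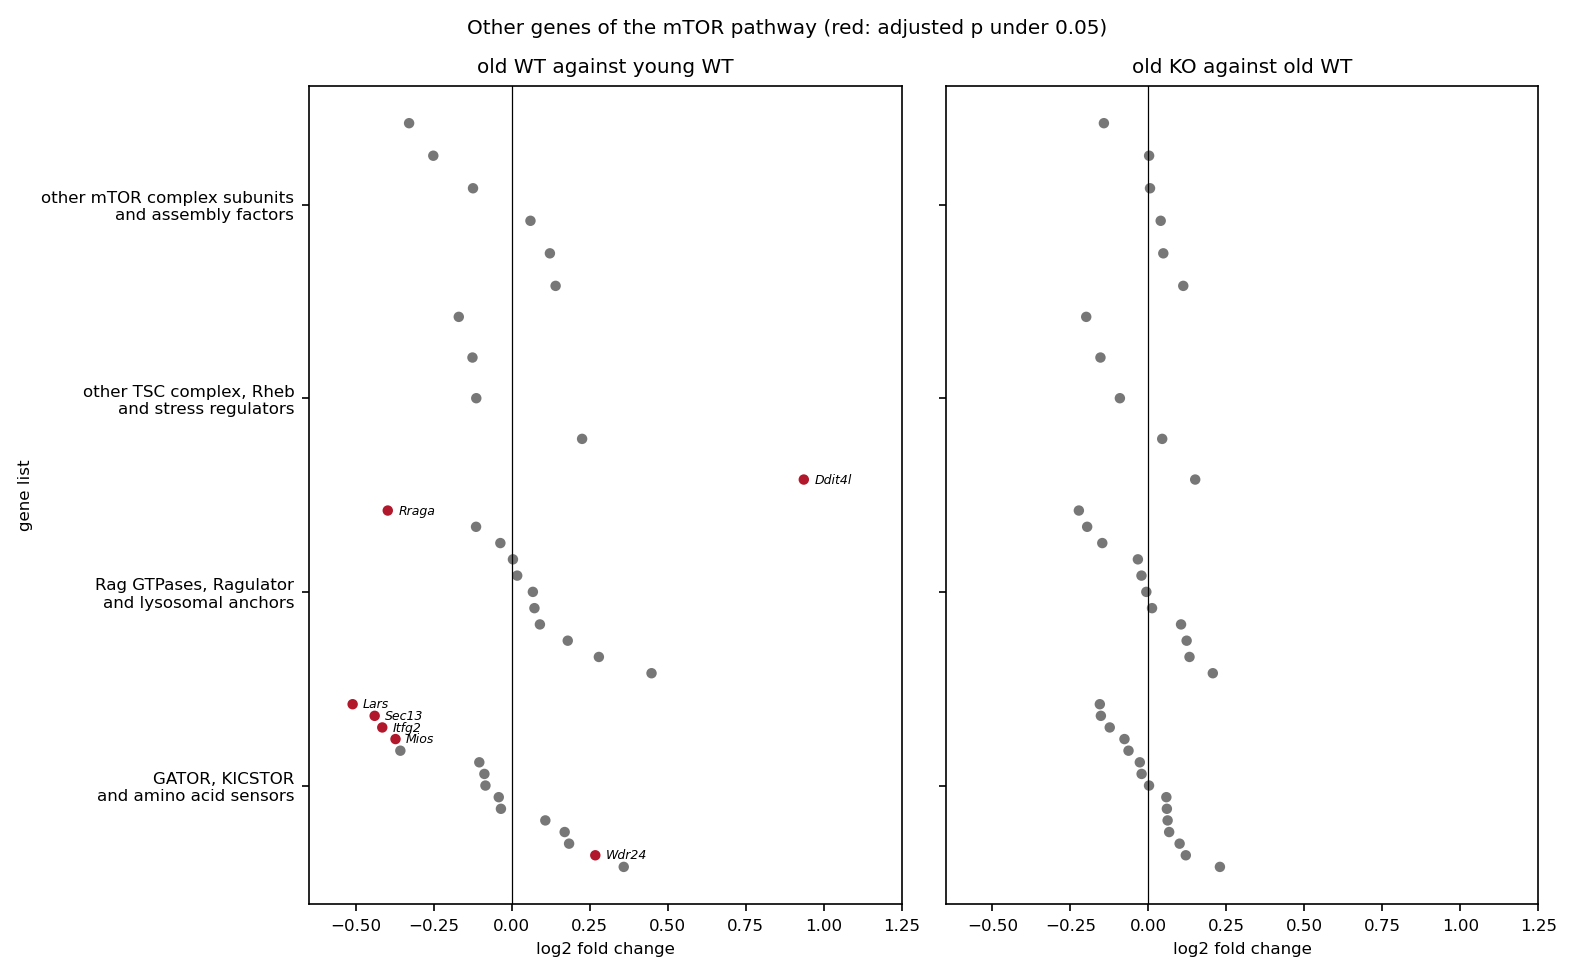
Log2 fold change (horizontal axis) of the tested genes of 4 lists of other pathway genes, with age and with genotype. Red points had an adjusted p under 0.05 and are named. The 7 red points are all in the age panel, with Ddit4l farthest to the right at 0.94.

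Genes known to share inducers with Ddit4 and Sesn1 were read in the same way. Of 10 glucocorticoid-responsive genes, 0 passed in any contrast in edgeR, although with age 4 had an unadjusted p under 0.05 (Fkbp5, Sgk1, Zbtb16 and Klf9), DESeq2 called 2 (Sgk1 and Zbtb16) and limma voom 0. The smallest p with age was that of Zbtb16, a strongly steroid-induced transcription factor, at 35.2 ± 28.3 CPM in young WT, 9.87 ± 5.14 in old WT and 30.8 ± 35.6 CPM in old KO livers (age -1.84, adjusted p = 0.0621, and genotype 1.64, adjusted p = 0.326). Of 10 p53 target genes 3 rose with age, where 9.92% of all genes did. They were Eda2r, a TNF receptor family member (log2 fold change 1.44, adjusted p = 0.00562), Phlda3, an AKT inhibitor (1.15, adjusted p = 0.0112), and Ccng1, cyclin G1, which was named after its values were seen (0.42, adjusted p = 0.00662). Of 10 FOXO target genes 1 rose, Gadd45a, a growth arrest and DNA damage gene (1.15, adjusted p = 0.0115).

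Of 9 tested ATF4 target genes 1 rose, Vldlr, the very low density lipoprotein receptor (log2 fold change 1.64, adjusted p = 0.00139), and 1 fell, Trib3, a pseudokinase (-1, adjusted p = 0.0255). Of 15 genes of the circadian clock and its output, 2 rose with age, Npas2 (0.99, adjusted p = 0.00499) and Cry1 (0.69, adjusted p = 0.0373), and 2 fell, Nr1d1 (REV-ERB alpha, -1.46, adjusted p = 0.0368) and Ciart (-2.39, adjusted p = 0.0155), where 9.92% of all genes rose and 8.91% fell. Limma voom did not call Cry1. No gene of these 5 lists passed with genotype in edgeR or limma voom, and DESeq2 called Eda2r and Per2. At an unadjusted p under 0.05 in edgeR there were 1 glucocorticoid-responsive, 4 p53, 1 ATF4, 1 FOXO and 1 clock gene, where 11.6% of all genes passed. The hour at which livers were taken was not given in the sources used here, and its part in the levels of Ddit4 and Sesn1 was not tested.

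Markers of other cell types moved with age as well. Among T cell markers 2 of 8 rose, among B cell markers 1 of 6, and among endothelial markers 2 of 7 fell, where 9.92% of all genes rose and 8.91% fell. Limma voom called 0 of the T cell and B cell markers. Of 7 stellate cell and fibroblast markers 1 fell, of 9 hepatocyte markers 2 fell, and of 5 cholangiocyte and 4 red blood cell markers 0 passed in edgeR, DESeq2 or limma voom, with 0 and 1 at an unadjusted p under 0.05. Of the 10 macrophage markers 0 passed with age in edgeR, with 4 at an unadjusted p under 0.05, 3 called by DESeq2 and 2 by limma voom. Of 5 adipocyte markers only Cidec could be tested and it fell, while Adipoq never exceeded 8 counts. Cidec does not stand for the list, because the others did not fall, though all were near 0. Their counts summed over young WT and over old WT libraries were 5 and 11 for Adipoq, 2 and 3 for Plin1, 0 and 3 for Lep, and 0 and 13 for Cfd. Hepatocyte markers summed to 86838 to 138743 CPM in young WT, 96282 to 147769 CPM in old WT and 115475 to 152339 CPM in old KO livers. Their part in the fall of Rheb was not tested. With genotype, none of these lists but the macrophage markers had a member past the threshold in edgeR, DESeq2 or limma voom. All 8 T cell markers (median log2 fold change -0.67) and all 6 B cell markers (-0.63) were nonetheless lower in old KO livers. All 4 red blood cell markers (0.77) were higher, and 8 hepatocyte markers were higher and 1 lower (0.23). Of the endothelial markers 3 were higher and 4 lower, of the stellate cell markers 4 and 3, and of the cholangiocyte markers 4 and 1. Cidec was lower. At an unadjusted p under 0.05 in edgeR these other lists held 1 T cell, 2 B cell and 2 red blood cell markers, where 11.6% of all genes passed.

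For Ddit4, Sesn1 and Deptor, the 3 genes with the most similar profile were sought among 12125 genes of at least 1 CPM on average, by Pearson correlation of log2 CPM over the 15 libraries, which share depth and group structure. For Ddit4 they were Dpyd (0.885, Spearman 0.764, and 0.885 after removal of group means), 2010001A14Rik (0.862) and Rilpl1 (0.821). Without the 2 mice farthest from the median of Ddit4, young WT 3 and 6, the value for Dpyd was 0.769. For Sesn1 they were Mpv17l (0.907, Spearman 0.904, and 0.857 without old KO 1 and old WT 10), Eif2ak3 (0.870) and Rpa1 (0.844).

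For Deptor the most similar genes were Elf1 (0.851), Trps1 (0.842) and Ptprg (0.821). The likeness of Elf1 rested on young WT 1 and old WT 5, without which it was 0.393. Without them that of Ptprg was 0.582 and that of Trps1, which averaged only 1.22 CPM, was 0.747. These genes were the highest of 12125, so the values describe these libraries and carry no test.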

How the data were processed

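RNA was sequenced from 15 livers (TruSeq stranded mRNA libraries, single-end reads). Per the labels and the study's methods, the authors demultiplexed with CASAVA, aligned to mm9 with TopHat2 2.0.11 and used HTSeq for counting. What they deposited are raw counts for each gene, not normalized or pooled. The annotation and strand setting of the counting are not given in the sources used here. Of 37991 identifiers 37205 had a position in GENCODE M1 (NCBIM37, the same build as mm9).

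Counts were tested with edgeR 4.0.16 (R 4.3.3), with filterByExpr, TMM and glmQLFTest on all 15 libraries, Benjamini-Hochberg adjustment over 14258 genes and a threshold of 0.05, where the study names DESeq2 (1.18.1 in its notes). The code was tested on simulated data. Intervals use the SE and degrees of freedom of the fit. Log2 CPM used a prior count of 2. Mice were separate animals, grouped by title, and no batch is labelled.

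The members and lists were chosen with earlier results of these data known. Of the gene lists, 86 of 96 pathway entries matched by symbol and 7 by RefSeq synonym, and 60 and 1 of 62 marker entries. The genes named were the members, Rps6kb1, Rps6kb2, of each pathway list at most the 2 largest rises and 2 largest falls past the threshold in the age or genotype contrast (or the smallest p where none passed), and 3 genes most like Ddit4, Sesn1 and Deptor. Alternatives were RLE and upper quartile scaling, no filter, DESeq2 1.42.0, limma voom 3.58.1, the 10 libraries of a contrast, a replicate block and leaving out each library. Other genes were named after their values were seen.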

Additional observations from a re-analysis of the deposited data

Results flagged for a closer look

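In 36 sets of 5 libraries (10 members, Rps6kb1 and Rps6kb2 in 3 groups) a lone library stood apart from the other 4 in 3 sets by Dixon's criterion, which chance gives in about 1 set in 20. Deptor was lowest in young WT 1 at 179 CPM, where the next lowest young WT mouse had 257 CPM. Tsc2 was highest in old KO 5 at 46.5 CPM, against 42 CPM in the next. Ddit4 was highest in old KO 5 at 13.8 CPM, against 6.66 CPM in the next.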

How the results depend on the processing

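Of 440 refits of the members' fold changes with age and genotype (20 fold changes, each under 7 other settings and 15 fits without 1 library), 414 kept their direction and side of the threshold, 16 lost the call, 1 gained it and 9 turned sign, all 9 for differences that had not passed. All 16 lost calls were of Rheb with age, the only call among the 20, lost in 3 of 7 settings and 13 of 15 fits without 1 library. Most of the 414 were thus differences that stayed uncalled. Refits of old KO against young WT are not in the 440. With age, members called were 0 with no filter, with the replicate block and with the 10 libraries, and 0 to 1 without 1 library. Genes called were 899 with the replicate block and 1748 to 3284 without 1 library (1748 without young WT 1), against 2685. With genotype, members called were 1 with DESeq2. Genes called were 305 with DESeq2, 23 with limma voom and 6 with the replicate block, against 76, and 9 to 108 without 1 library (9 without old WT 4, 10 without old WT 1). Of old KO against young WT, members called were 0 with no filter and with the replicate block, and 0 to 2 without 1 library. The cause was not tested.

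The labels do not say whether mice of the same replicate number belonged together. Same-numbered mice deviated from their group means with correlations of 0.00205 to 0.0231 for old WT and old KO (3 pairs). They were -0.153 to 0.0600 for young WT and old KO (4 pairs) and -0.0312 to 0.0770 for young and old WT (2 pairs). Pairs with different numbers ran from -0.267 (old WT 7 and old KO 4) to 0.355 (old WT 10 and old KO 6). So few same-numbered pairs cannot show whether the numbers pair the mice. The replicate block leaves 5 residual degrees of freedom. With it Rheb differed by -0.17 with age (adjusted p = 0.253), and between old KO and young WT Mtor by -0.38 (0.0515) and Rptor by -0.22 (0.0851), by edgeR.

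Sign turned with age for Deptor under the replicate block (0.051). Without 1 library the age differences ran from -0.15 to 0.097 for Mlst8 (above 0 without young WT 1), -0.13 to 0.014 for Deptor (0.0086 without young WT 3, 0.014 without 6), -0.0027 to 0.19 for Tsc1 (below 0 without old WT 4), -0.035 to 0.092 for Tsc2 (below 0 without old WT 1) and -0.58 to 0.15 for Ddit4 (above 0 without young WT 3). The genotype differences ran from -0.14 to 0.016 for Rictor (above 0 without old WT 7) and -0.099 to 0.010 for Mlst8 (above 0 without old KO 6). By the longest transcript, levels per kb moved to 9.47 (Rheb), 7.13 (Mtor), 4.49 (Tsc1) and 5.75 (Rptor).

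With 5 mice a group, differences of Ddit4 within its intervals could not be told from none.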
